A study of Mus musculus with 9 samples.

Results

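The genes described here encode the receptors by which basophils sense antibody and the proteins that act first beneath them. They were chosen by symbol, with no measured value in the rule, but with earlier results of these data known. They are the 3 chains of the high-affinity receptor for immunoglobulin E (Fcer1a, Ms4a2 and Fcer1g) and the receptors for immunoglobulin G Fcgr2b, Fcgr3 and Fcgr4. The others are the basophil surface receptor Cd200r3, the kinases Lyn and Syk, and the adaptor Lat. All 10 symbols had a row among the 35673 symbols of the deposited count table, and all 10 passed the filter on low counts that 21341 genes passed. Bulk RNA was sequenced from basophils grown for 7 days from C57BL/6J wild-type mouse bone marrow in 0.3 ng/mL of the cytokine IL-3 and collected by the surface protein CD49b with magnetic particles, in portions of 10000 cells. The treatments lasted 4 hours, with 3 libraries for each. Difamilast cells received 10 ng/mL IL-3 and 10 ng/mL IL-33 together with 3 µM difamilast, which inhibits phosphodiesterase 4, an enzyme that degrades cyclic AMP. Stimulated cells received the same cytokines with DMSO, the solvent. Resting cells received PBS and DMSO. No library with difamilast alone was analysed here, and no label ties replicates to different cultures or mice, so the p-values rest on a spread between libraries that may be technical.

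The receptor for immunoglobulin E is built from the alpha chain (Fcer1a), which binds the antibody, the beta chain (Ms4a2), which amplifies the signal, and a pair of gamma chains (Fcer1g), which carry the activation motifs. When antigen crosslinks bound antibody, Lyn phosphorylates the beta and gamma chains, Syk docks on the gamma chain, and Lat gathers the enzymes that raise calcium and release granules and cytokines. The gamma chain is shared with the activating immunoglobulin G receptors Fcgr3 and Fcgr4, whereas Fcgr2b carries an inhibitory motif and restrains both kinds of receptor. Cd200r3 is an activating relative of the CD200 receptor that marks mouse basophils and mast cells. No antibody or antigen is named among the treatments.

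The sequences before the start sites of the genes for the 3 receptor chains are shown because all 3 transcripts rose with the cytokines, while Ms4a2 alone among them passed the test with difamilast. Each holds the 250 bases before the start, 5′ to 3′, from RefSeq on GRCm38.p6, and capitals mark the GATA motif GATAA or its reverse TTATC. The Fcer1a window lies on the minus strand at chr1:173227230-173227479, that of Ms4a2 on the minus strand at chr19:11623720-11623969, and that of Fcer1g on the minus strand at chr1:171234350-171234599.
Fcer1a: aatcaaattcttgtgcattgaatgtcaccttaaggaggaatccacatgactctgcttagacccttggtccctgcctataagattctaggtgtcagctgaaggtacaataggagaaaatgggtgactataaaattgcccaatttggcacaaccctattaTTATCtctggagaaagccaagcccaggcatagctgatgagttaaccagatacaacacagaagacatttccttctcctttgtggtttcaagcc
Ms4a2: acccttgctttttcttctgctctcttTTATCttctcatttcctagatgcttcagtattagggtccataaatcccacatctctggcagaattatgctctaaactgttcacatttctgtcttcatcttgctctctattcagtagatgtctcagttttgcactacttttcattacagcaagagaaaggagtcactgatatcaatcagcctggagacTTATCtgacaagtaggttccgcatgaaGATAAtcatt
Fcer1g: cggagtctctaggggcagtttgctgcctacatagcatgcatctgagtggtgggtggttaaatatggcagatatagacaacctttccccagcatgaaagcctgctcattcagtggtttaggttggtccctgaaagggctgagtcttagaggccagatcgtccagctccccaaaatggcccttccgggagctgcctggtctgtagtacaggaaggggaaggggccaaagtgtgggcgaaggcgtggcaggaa

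The GATA motif was found in 1 place for Fcer1a, 92 to 88 bases before the start, and in 3 places for Ms4a2, at 224 to 220, 37 to 33 and 10 to 6 bases before it. These letters were not found in the Fcer1g window. Of the members, 9 matched the RefSeq table, with 11 windows. The motif stood in 4 of these 11 windows (1 each of Cd200r3, Fcer1a, Ms4a2 and Syk) and in 22.6% of 32841 such windows of all genes. Both strands were searched for 5 further motifs. An NF-kB motif was found in 7 of the 11 windows, of 6 members (Fcer1a, Fcer1g, Fcgr2b, Fcgr3, Fcgr4 and Syk, with both overlapping windows of Fcgr3), and in 45.8% of all windows. The STAT form TTCNNNGAA (7.02% of all windows), the cyclic AMP response element TGACGTCA (1.55%), its shorter form TGACG, which lies within it (17.8%), and the AP-1 form TGANTCA (6.75%) were found in 0 of the 11 windows. Matches describe letters in these windows and say nothing about binding.

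Total counts per library ran between 24812305 and 30299575 with difamilast, between 11798711 and 38098584 in stimulated and between 6261446 and 14795353 in resting cells. Levels are CPM, counts scaled to a common library size, after TMM scaling, which adjusts totals for composition. The member with the fewest reads was Fcgr4, with 100 to 400 counts per library, and the others had at least 439. All 14 basophil markers of the list used here were above 1 CPM in at least 1 library, the protease Mcpt8, the protease Prss34 and the transcription factor Gata2 among them. With stimulation 8 of these basophil markers rose and 3 (Itga2, Cebpa and Lmo4) fell, where 15.3% of all tested genes rose and 16.4% fell. Their summed level was 22848 to 23142 CPM with difamilast, 21290 to 22189 CPM in stimulated and 8622 to 10358 CPM in resting cells. Ccl9, Hdc and Mcpt8 led this sum, and Ccl9 alone averaged 1789 CPM in resting and 6587 CPM in stimulated cells. The sum thus holds genes that moved with the cytokines and does not measure the share of basophils. Mast cell markers were present as well: 10 of the 12 listed exceeded 1 CPM in some library, led by Gzmb, Cpa3 and Tpsb2, and Mcpt4 and Mrgprb2 did not. Their summed level was 3575 to 4262 CPM with difamilast, 3372 to 3660 CPM in stimulated and 1462 to 1844 CPM in resting cells. Of the 11 mast cell markers tested, 5 rose and 1 fell with stimulation (15.3% and 16.4% of all tested genes). With difamilast against stimulated cells, 1 of them rose and 3 fell (2.21% and 1.24% of all tested genes). Markers of monocytes and macrophages were present too, and the part of these 3 lists in the results below was not tested. The summed level of these 18 genes was 6853 to 7083 CPM with difamilast, 6323 to 6764 CPM in stimulated and 8468 to 10187 CPM in resting cells, led by Lyz2, Apoe and Ctss. Of the 18, 12 fell and 0 rose with stimulation, 0 fell and 1 (Cd14) rose with difamilast against stimulated cells (1.24% of all genes fell and 2.21% rose), and 13 fell and 1 rose with difamilast against resting cells (16.4% and 16.4%). Neutrophil markers (12 genes) summed to 199 to 292 CPM with difamilast, 272 to 303 CPM in stimulated and 232 to 278 CPM in resting cells. Dendritic cell markers (10 genes, led by Cd74, H2-Aa and H2-Ab1) summed to 2096 to 2214 CPM with difamilast, 1951 to 2066 CPM in stimulated and 1815 to 2287 CPM in resting cells. The part of these genes in the results below was not tested.

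With IL-3 and IL-33, transcripts of all 3 chains of the receptor for immunoglobulin E, of the receptors Fcgr3 and Fcgr2b, and of Syk rose by 1.51-fold to 2.25-fold, while Fcgr4 and Lat fell. Cd200r3 and Lyn did not pass the test, and the calls of Fcer1g and Lat were lost when single libraries were left out. Of the 10 members, 6 rose and 2 fell by edgeR's quasi-likelihood test at a Benjamini-Hochberg adjusted p under 0.05. Over all 21341 genes, 15.3% rose and 16.4% fell, 31.7% in all. The median log2 fold change was 0.66 for the members and 0.06 for all genes. Difamilast against stimulated cells moved a single member past the threshold, Ms4a2, which was 1.75-fold lower; over all genes 2.21% were higher and 1.24% lower, 3.44% in all. These are bulk libraries, in which fewer cells of a type and less RNA per cell cannot be told apart.

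**Figure D1:**
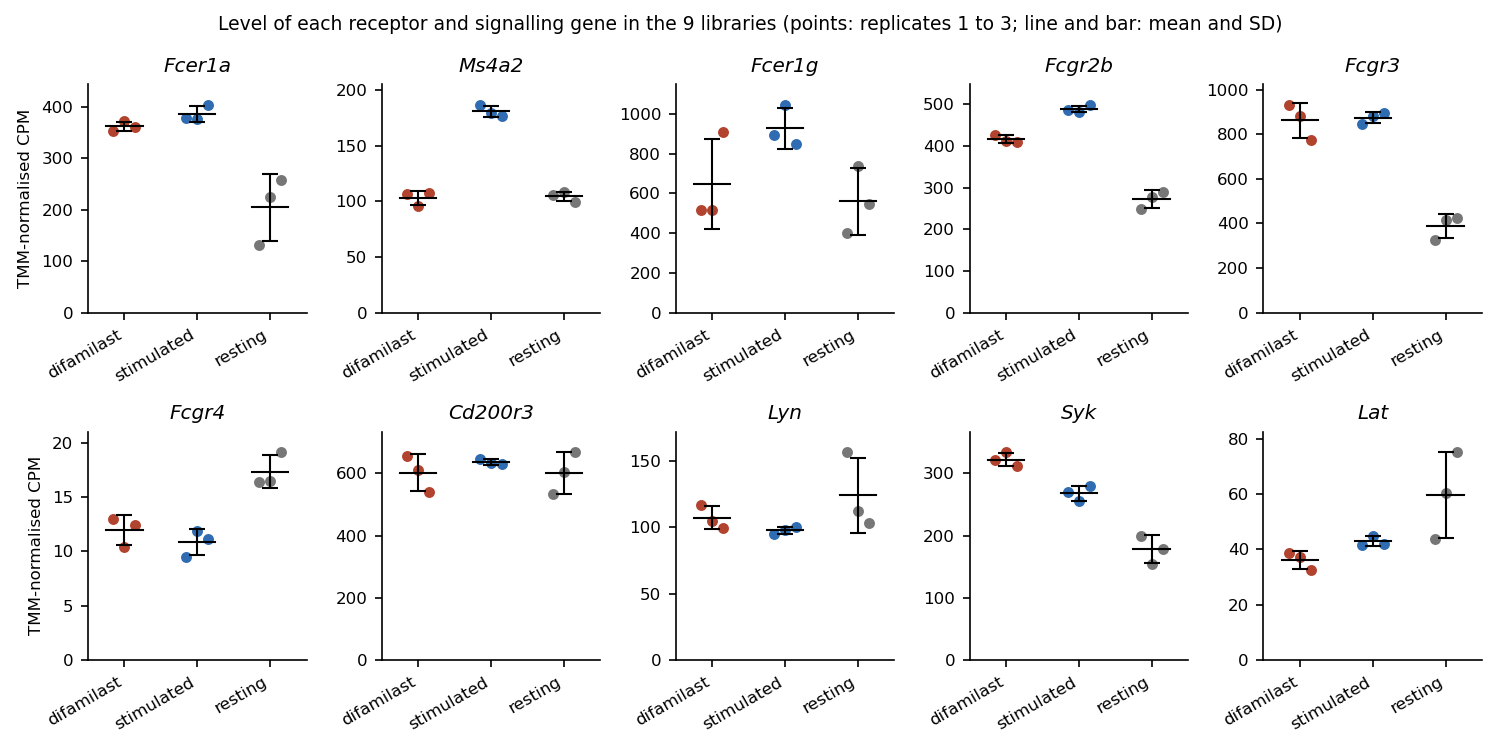
TMM-normalised CPM (vertical axis, linear, from 0) of the 10 genes in each library, with difamilast, stimulated and resting cells from left to right, points for replicates 1 to 3, and the mean with its SD. Ms4a2 stands between 95.8 and 107.5 CPM with difamilast, between 177 and 186.5 CPM in stimulated and between 99.9 and 108 CPM in resting cells, while Fcer1a, Fcgr3 and Fcgr2b stay above every resting library with difamilast.

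The beta chain gene Ms4a2 (chromosome 19, 11615523 to 11623719) had 106.5, 95.8 and 107.5 CPM with difamilast, 186.5, 179 and 177 CPM in stimulated cells, and 105.5, 108 and 99.9 CPM in resting cells. The stimulated libraries lay above all others, and the difamilast and resting libraries overlapped. Its log2 fold change was 0.79 ± 0.10 (SE) for stimulated against resting cells (edgeR adjusted p = 1.33e-05) and -0.81 ± 0.10 for difamilast against stimulated cells (adjusted p = 0.000108). Difamilast against resting cells gave -0.02 ± 0.10 (adjusted p = 0.91), an interval of 2 SE from -0.21 to 0.17. The first 2 of these calls held in all 17 alternatives of fit, scaling, filter and left-out library. Of the 50-base windows of its annotated transcripts, 2.13% also occur in the neighbouring family member Ms4a4b, so reads there may be counted for either gene. Ms4a4b itself had 49.8, 63.6 and 75.7 CPM with difamilast, 128, 124 and 124 CPM in stimulated and 12.2, 17.6 and 19.5 CPM in resting cells.

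The alpha chain gene Fcer1a (chromosome 1, 173221284 to 173227214) had 353, 372 and 361 CPM with difamilast, 378, 376 and 403 CPM in stimulated cells, and 132, 225 and 257 CPM in resting cells. Both cytokine-treated groups lay above every resting library, and resting replicate 1 was the lowest of its group. The log2 fold change of stimulated against resting cells was 0.92 ± 0.17 (SE; edgeR adjusted p = 0.000853), and without resting replicate 1 it was 0.65 (adjusted p = 9.02e-06). Difamilast against stimulated cells gave -0.09 ± 0.17 (adjusted p = 0.871; an interval of 2 SE from -0.43 to 0.25), although the lowest stimulated library lay above the highest difamilast library; with the trend of level with transcript length removed, the value was 0.003. Difamilast against resting cells gave 0.82 ± 0.17 (adjusted p = 0.00193). The count ratio of Ms4a2 to Fcer1a was 0.302, 0.258 and 0.298 with difamilast, 0.494, 0.477 and 0.439 in stimulated cells and 0.8, 0.48 and 0.389 in resting cells. The difamilast ratios lay below all 6 others; this ratio was chosen after its values were seen and was not tested.

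The gamma chain gene Fcer1g (chromosome 1, 171229572 to 171234365) had 515, 516 and 908 CPM with difamilast, 892, 1044 and 849 CPM in stimulated cells, and 400.3, 737 and 547 CPM in resting cells. Difamilast replicate 3 stood among the stimulated libraries, and the other two difamilast libraries stood within the resting range. Stimulated cells were above resting cells by 0.73 ± 0.22 (log2, SE; edgeR adjusted p = 0.0206), but the call was lost without resting replicate 1 (0.50, adjusted p = 0.284) or 3 (adjusted p = 0.0685), and without stimulated replicate 1 (adjusted p = 0.0583) or 2 (adjusted p = 0.082). Difamilast against stimulated cells gave -0.52 ± 0.22 (adjusted p = 0.277), and -0.85 without difamilast replicate 3 (adjusted p = 0.0202); without a filter on low counts, the value of -0.50 passed too (adjusted p = 0.00133). Difamilast against resting cells gave 0.20 ± 0.22 (adjusted p = 0.52). Its longest transcript, of 683 bases, is the shortest of the members. The 483 tested genes with transcripts under 750 bases and at least 10 CPM deviated from their group mean by a median log2 value of -0.23, -0.20 and 0.44 in difamilast replicates 1 to 3, -0.05, 0.13 and -0.08 in stimulated replicates and -0.21, 0.27 and -0.06 in resting replicates. The high and low libraries of Fcer1g in each group were also the high and low libraries of these short transcripts; the part of transcript length in the Fcer1g values was not tested beyond the fit that follows. With the length trend removed, stimulated cells remained above resting cells by 0.56 (adjusted p = 0.0104), and difamilast against stimulated cells gave -0.40 (adjusted p = 0.195). The count ratio of Fcer1a to Fcer1g, on the log2 scale, averaged -0.78 ± 0.47 with difamilast, -1.26 ± 0.20 in stimulated and -1.47 ± 0.33 in resting cells (SD, n = 3 each), and the groups overlapped (two-sided exact permutation test, p = 0.3 for difamilast against stimulated, 0.2 for difamilast against resting and 0.4 for stimulated against resting cells, where 0.1 is the smallest that 3 against 3 allows).

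**Figure D2:**
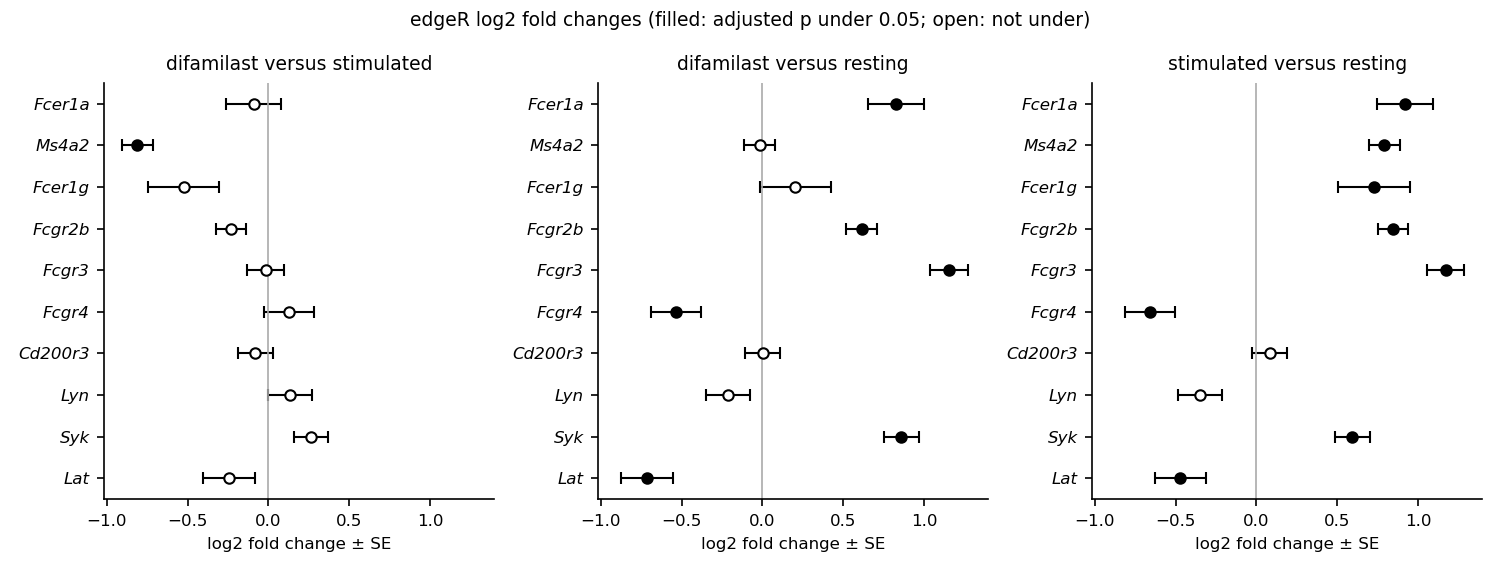
edgeR log2 fold changes (horizontal axis) with their SE for the 10 genes in difamilast against stimulated, difamilast against resting and stimulated against resting cells, filled where the adjusted p is under 0.05. Ms4a2 is the single filled point in the left panel at -0.81, and 8 genes are filled in the right panel.

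Among the immunoglobulin G receptors, the activating receptor Fcgr3 (chromosome 1, 171051174 to 171064935) had 929.8, 883 and 775 CPM with difamilast, 846, 881 and 893 CPM in stimulated cells, and 327, 416 and 423 CPM in resting cells. Its rise of 2.25-fold with stimulation was the highest of the members, with a log2 fold change of 1.17 ± 0.12 (SE; edgeR adjusted p = 1.61e-06). Both cytokine-treated groups lay far above the resting libraries and overlapped each other, with -0.02 ± 0.11 for difamilast against stimulated cells (adjusted p = 0.969; an interval of 2 SE from -0.25 to 0.21). The inhibitory receptor Fcgr2b (chromosome 1, 170958617 to 170976547) had 427, 412.5 and 409.6 CPM with difamilast, 485.5, 482 and 498 CPM in stimulated cells, and 249, 278 and 290.3 CPM in resting cells. The 3 groups did not overlap, with the difamilast libraries in the middle. Stimulated cells were above resting cells by 0.84 ± 0.09 (adjusted p = 5.97e-06), and difamilast against stimulated cells gave -0.23 ± 0.09 (adjusted p = 0.254), which passed without resting replicate 1 (-0.23, adjusted p = 0.0365).

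Within a library, Fcgr2b had fewer counts per count of Fcgr3 after the cytokines. Their longest transcripts differ, with 3544 bases for Fcgr2b and 1347 for Fcgr3, and the part of transcript length in this ratio was not tested. The count ratio was 0.459, 0.467 and 0.528 with difamilast, 0.574, 0.547 and 0.557 in stimulated cells, and 0.76, 0.667 and 0.687 in resting cells. No groups overlapped. On the log2 scale the ratio was lower by 0.33 in stimulated than in resting cells, by 0.21 with difamilast than in stimulated cells and by 0.54 with difamilast than in resting cells, and each difference gave p = 0.1 by exact permutation, two-sided, below which 3 against 3 libraries cannot go. The 2 genes share 166 windows of 50 bases, which are the 12.34% of Fcgr3 windows that occur in another gene's transcripts. Of the Fcgr2b windows, 10.65% occur in other genes, with Gm38204, Gm47409, Cplx2 and Rab3c among them besides Fcgr3. Reads in shared windows are uncertain.

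**Figure D3:**
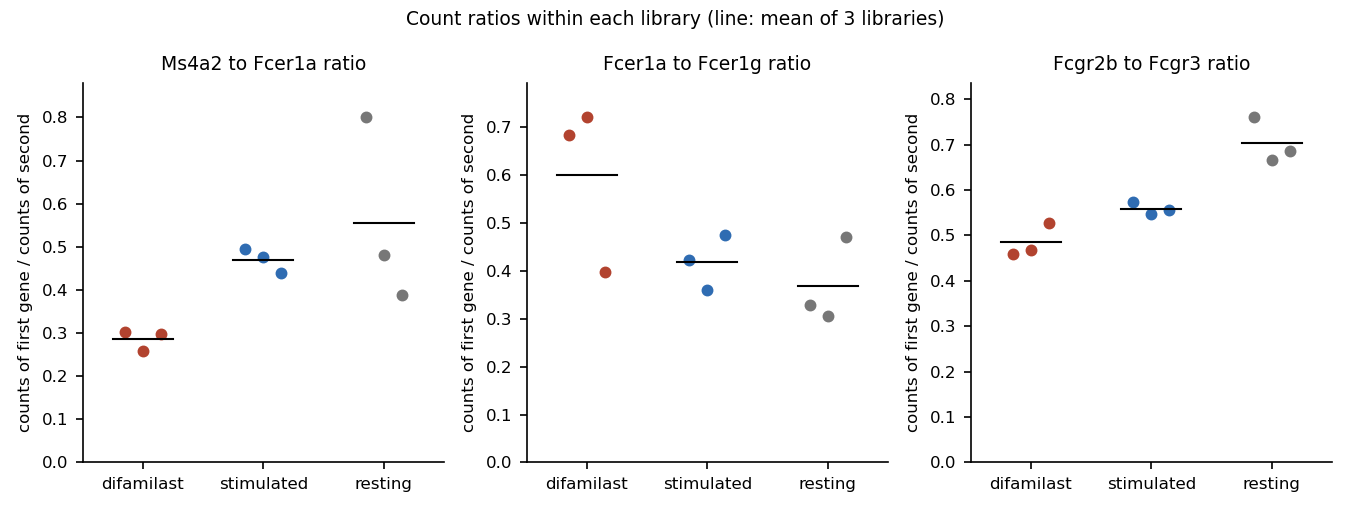
Count ratios within each library (vertical axis, linear, from 0) of Ms4a2 to Fcer1a, Fcer1a to Fcer1g and Fcgr2b to Fcgr3, with difamilast, stimulated and resting cells from left to right and a line at the mean of 3 libraries. The Ms4a2 to Fcer1a ratio lies between 0.258 and 0.302 with difamilast, below the other libraries, and the Fcgr2b to Fcgr3 ratio separates all 3 groups.

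Fcgr4 (chromosome 1, 171018920 to 171029761), an activating receptor known from monocytes, macrophages and neutrophils, was the lowest member. It had 13, 10.4 and 12.5 CPM with difamilast, 9.52, 11.9 and 11.2 CPM in stimulated cells, and 16.4, 16.5 and 19.1 CPM in resting cells. Every resting library lay above the 6 others. The log2 fold change was -0.66 ± 0.16 (SE) for stimulated against resting cells (edgeR adjusted p = 0.00472), 0.13 ± 0.15 for difamilast against stimulated cells (adjusted p = 0.788) and -0.53 ± 0.16 for difamilast against resting cells (adjusted p = 0.0159). The last call was lost without difamilast replicate 2 (adjusted p = 0.084) and with every library thinned to the shallowest total (adjusted p = 0.165). Of the 18 monocyte and macrophage markers, 12 fell with stimulation, 0 rose and 6 were not called. The monocyte receptor Csf1r, one that fell, was at 92.4, 95.7 and 97.9 CPM with difamilast, 98.6, 91 and 105 CPM in stimulated and 234, 144 and 142 CPM in resting cells. It is not among the genes that led that list, and it was named here after the values of the list were seen. Fcgr1, a further immunoglobulin G receptor, rose 1.53-fold with stimulation (edgeR adjusted p = 0.00284) and was named here after its values were seen. The part of monocytes and macrophages in the Fcgr4 result was not tested.

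Cd200r3 (chromosome 16, 44943678 to 44981380) had 655, 612 and 539 CPM with difamilast, 647, 632 and 629.7 CPM in stimulated cells, and 533, 603 and 667 CPM in resting cells. All 3 groups overlapped. Its log2 fold change was 0.08 ± 0.11 (SE) for stimulated against resting cells (edgeR adjusted p = 0.605; an interval of 2 SE from -0.13 to 0.30), -0.08 ± 0.11 for difamilast against stimulated cells (adjusted p = 0.812) and 0.003 ± 0.108 for difamilast against resting cells (adjusted p = 0.985). Among its relatives, the activating receptor Cd200r4 rose 1.40-fold with stimulation (adjusted p = 0.00183), while the inhibitory receptor Cd200r1 gave a log2 fold change of 0.24 ± 0.10 (adjusted p = 0.0699). Tyrobp, which encodes the adaptor DAP12 that Cd200r3 uses and has a short transcript like that of Fcer1g, gave 0.42 ± 0.21 (adjusted p = 0.146). Cd200r1, Cd200r4 and Tyrobp belong to a receptor list described further on and were named here after their values were seen.

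Of the kinases, Syk (chromosome 13, 52583173 to 52648792) had 322, 334 and 311.5 CPM with difamilast, 269.9, 255 and 279.6 CPM in stimulated cells, and 200.1, 155 and 179 CPM in resting cells. The groups did not overlap, and the difamilast libraries were the highest. The log2 fold change was 0.59 ± 0.11 (SE) for stimulated against resting cells (edgeR adjusted p = 0.000549) and 0.86 ± 0.11 for difamilast against resting cells (adjusted p = 1.79e-05). Difamilast against stimulated cells gave 0.27 ± 0.11 (adjusted p = 0.243), which passed in a fit of these 2 groups alone (adjusted p = 0.0396) and without resting replicate 1 (adjusted p = 0.0365).

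Lyn (chromosome 4, 3678115 to 3813122), which phosphorylates the receptor and also starts inhibitory signals, had 117, 105 and 99.7 CPM with difamilast, 94.8, 97.7 and 100.4 CPM in stimulated cells, and 156, 112.5 and 103 CPM in resting cells. Resting replicate 1 was the highest, the other 8 libraries lay between 94.8 and 117 CPM, and the stimulated libraries lay below all resting ones. Stimulated against resting cells gave -0.35 ± 0.14 (log2, SE; edgeR adjusted p = 0.0663). It passed without resting replicate 2 (-0.46, adjusted p = 0.0324) or 3 (-0.50, adjusted p = 0.0156), with DESeq2 (adjusted p = 0.0427), with RLE scaling (adjusted p = 0.0462) and without a filter on low counts (adjusted p = 0.0246). Difamilast gave 0.14 ± 0.14 against stimulated cells (adjusted p = 0.728) and -0.21 ± 0.14 against resting cells (adjusted p = 0.258). Of the 50-base windows of Lyn, 21.5% occur in Gm11787 or in Gm26857, which overlaps Lyn on the other strand, so its counts may hold reads of either; Gm11787 was at 2.66 to 5.66 CPM.

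The adaptor gene Lat (chromosome 7, 126363824 to 126369570) had 38.8, 37.4 and 32.6 CPM with difamilast, 41.8, 45 and 41.9 CPM in stimulated cells, and 43.8, 60.4 and 75.1 CPM in resting cells. Resting replicate 1 lay among the stimulated libraries, and every difamilast library lay below all others. Stimulated cells were below resting cells, with a log2 fold change of -0.47 ± 0.16 (SE; edgeR adjusted p = 0.0348). That call was lost without resting replicate 2 (adjusted p = 0.0509) or 3 (0.128), without stimulated replicate 1 (0.0751), 2 (0.0713) or 3 (0.104), with limma-voom (0.0558) and in a fit of the 2 groups alone (0.0573). Difamilast gave -0.24 ± 0.16 against stimulated cells (adjusted p = 0.534) and -0.71 ± 0.16 against resting cells (adjusted p = 0.00297), and the call against resting cells held in all 17 alternatives.

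Difamilast cells were also set against resting cells, a comparison that shares its libraries with both others. Of the 10 members, 4 were higher (Fcgr3, Syk, Fcgr2b and Fcer1a) and 2 lower (Lat and Fcgr4); over all genes 16.4% were higher and 16.4% lower, 32.8% in all. Fcgr3 was 2.22-fold and Fcgr2b 1.53-fold higher than in resting cells. Ms4a2, Fcer1g, Cd200r3 and Lyn did not pass.

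Per kilobase of the longest annotated transcript, the order of levels in difamilast and stimulated cells differed in 2 neighbouring pairs, Ms4a2 with Syk and Lat with Lyn. With difamilast the libraries of Lyn and Lat overlapped, so the order of that pair is not settled there. Fcer1g stood first in each group, with 946.5 ± 332 CPM per kb with difamilast, 1360.0 ± 150.2 in stimulated and 822 ± 247 in resting cells (SD, n = 3 each). Fcgr3 came next, then Fcer1a, Cd200r3 and Fcgr2b. In resting cells Fcgr3 overlapped Fcer1a and Fcer1a overlapped Cd200r3, and no neighbours among these 5 overlapped in the other groups. The alpha chain was at 363 ± 9.53 CPM per kb with difamilast, 386 ± 15.3 in stimulated and 205 ± 65.1 in resting cells. The beta chain was at 43.2 ± 2.71 CPM per kb with difamilast, 75.7 ± 2.07 in stimulated and 43.7 ± 1.75 in resting cells. Ms4a2 stood above Syk in stimulated cells and below it with difamilast, with no overlap in either group. In resting cells Lat, Ms4a2, Lyn and Syk each overlapped the next in that order. Levels per kb rest on the annotated lengths and on even coverage of transcripts, which the amplification may not give.

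**Figure D4:**
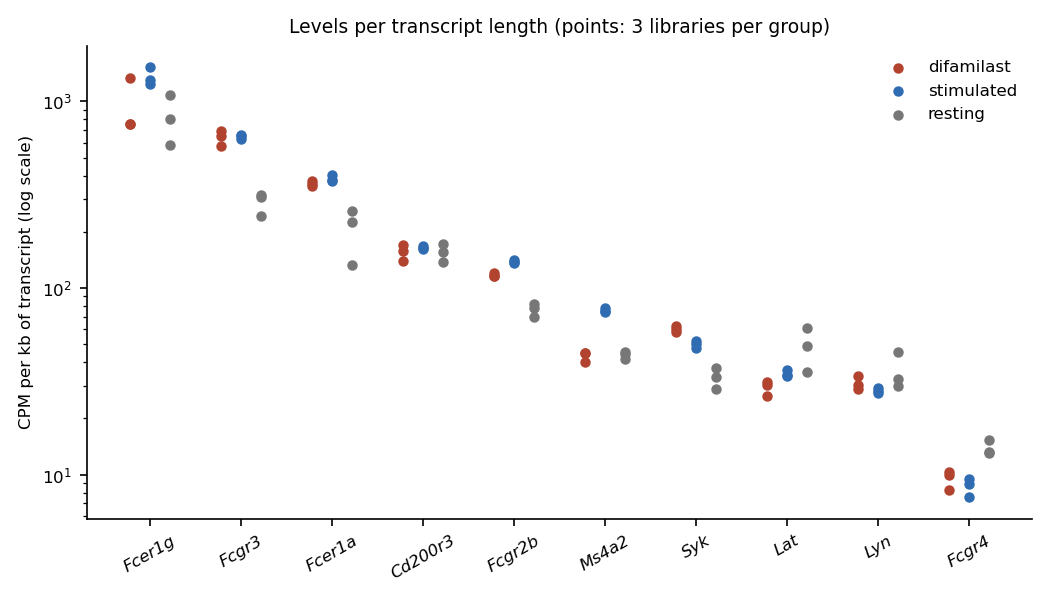
CPM per kb of longest transcript (vertical axis, log scale) of the 10 genes, ordered by the stimulated mean, with 3 libraries each of difamilast, stimulated and resting cells from left to right within a gene. Fcer1g is highest and Fcgr4 lowest in every group, and Ms4a2 crosses Syk between stimulated and difamilast cells.

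The genes whose log2 CPM followed a member most closely over the 9 libraries were taken from 7801 genes of at least 10 CPM, as a description. For Ms4a2 these were Zbtb7a, a transcriptional repressor (Pearson r = 0.989), Ccdc86 (0.981) and C3ar1, the receptor for the complement fragment C3a (0.978). C3ar1 was at 247 ± 13.3 CPM with difamilast, 468 ± 14.3 in stimulated and 276 ± 13.4 in resting cells. For Fcer1a they were the actin regulator Cfl1 (0.997), Cep85l (0.985) and the adaptor Grb2 (0.984), and for Cd200r3 they were Ccz1 (0.95), Dexi (0.92) and the replication clamp Pcna (0.919). Predicted genes, pseudogenes and ribosomal protein genes were left out of that pool. The 9 libraries fall into 3 groups, and differences between groups or single libraries that many genes share enter these values. The libraries also differ in depth, for which CPM is scaled.

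Further genes of the receptor's signalling pathway moved in both directions. Of a list of 40 kinases, adaptors, lipases, phosphatases and calcium genes, 14 rose and 18 fell with stimulation, with a median log2 fold change of -0.24, against 15.3% and 16.4% of all genes. Among the rises with the smallest p were the adaptor Pik3ap1 (3.78-fold higher) and Lcp2, which encodes SLP-76, the scaffold that works with Lat (3.75-fold). The kinase Tec rose 3.49-fold and the phosphoinositide kinase Pik3cd 2.92-fold. Among the falls were Lat2, an adaptor related to Lat (2.93-fold lower), the phospholipase Plcg1 (3.92-fold), the calcium sensor Stim1 (2.54-fold), the inhibitory lipid phosphatase Inpp5d, known as SHIP1, through which Fcgr2b acts (2.21-fold), and the kinase Fyn (2.02-fold). Their edgeR adjusted p-values ran from 1.16e-09 for Lcp2 to 1.35e-05 for Fyn. Of the windows of Lat2, 49.48% occur in Rfc2, which overlaps it on the other strand, so its value is uncertain.

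With difamilast against stimulated cells, 2 of these 40 genes rose and 4 fell, with a median of -0.01, against 2.21% and 1.24% of all genes. The kinase Fgr was at 10.0 ± 0.59 CPM with difamilast, 26.1 ± 2.5 in stimulated and 18.8 ± 2.96 in resting cells (SD, n = 3), 2.60-fold lower with difamilast than in stimulated cells (edgeR adjusted p = 4.97e-05), and the call held in all 17 alternatives. Pik3r1, a regulatory subunit of the phosphoinositide kinases, rose 1.32-fold (adjusted p = 0.0298) and lost its call without difamilast replicate 1 (0.115) or 2 (0.212) or stimulated replicate 1 (0.105), 2 (0.149) or 3 (0.162). Ptpn6, the inhibitory phosphatase SHP-1, fell 1.47-fold (adjusted p = 0.01) and lost its call without difamilast replicate 2 (0.0766) or stimulated replicate 1 (0.0686), 2 (0.0507) or 3 (0.0517). Rasgrp1, an activator of Ras, fell 1.88-fold (adjusted p = 0.026) and lost its call without difamilast replicate 1 (0.145) or 2 (0.138), without stimulated replicate 1 (0.146) or 3 (0.128) and in thinned libraries (0.187). The other gene that fell was the kinase Prkcd (adjusted p = 0.0386), named to complete the count, with a call in 9 of 17 alternatives.

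Of 32 tested genes of other Fc receptors and of paired activating and inhibitory receptors, 13 rose and 8 fell with stimulation, with a median log2 fold change of 0.20, against 15.3% and 16.4% of all genes. Milr1, the inhibitory mast cell receptor Allergin-1, rose 8.70-fold, to 229 ± 7.38 CPM in stimulated cells against 26.3 ± 1.67 CPM in resting cells (SD, n = 3; edgeR adjusted p = 4.87e-11). The activating receptor Pilrb1 rose 6.20-fold and its inhibitory partner Pilra 1.86-fold. Lilrb4a, an inhibitory receptor, rose 2.49-fold and the related Lilr4b 1.88-fold; these genes share 99.19% and 25.51% of their windows with others, so these values are uncertain. Those that fell with the smallest p were Cd300lb (1.68-fold lower), Siglecf (2.39-fold), the immunoglobulin M receptor Fcmr (2.5-fold), the inhibitory receptor Cd300a (1.33-fold) and Clec4a2 (1.55-fold). Fcmr was low, at 4.21 ± 1.13 CPM in resting and 1.66 ± 0.39 CPM in stimulated cells (SD, n = 3). Siglecf was low too, at 6.09 ± 1.7 CPM in resting and 2.57 ± 0.34 CPM in stimulated cells. Difamilast against stimulated cells gave 2 genes that rose and 3 that fell, with a median of -0.14, against 2.21% and 1.24% of all genes. Trem1, an activating receptor that signals through DAP12, was at 29.4 ± 5.12 CPM with difamilast, 6.91 ± 1.41 in stimulated and 10.3 ± 3.73 in resting cells, 4.34-fold higher with difamilast than in stimulated cells (adjusted p = 8.63e-05). Pilra fell 2.17-fold (adjusted p = 0.000432), and both calls held in all 17 alternatives. Clec4e, which signals through the gamma chain Fcer1g, rose 1.49-fold (adjusted p = 0.0124), and was not called without difamilast replicate 1 (0.0572) or 2 (0.0589) or stimulated replicate 1 (0.0868) or 2 (0.09). Pilrb1 fell 2.04-fold (adjusted p = 0.0092) and was not called without difamilast replicate 2 (0.0514) or stimulated replicate 1 (0.0542) or 3 (0.0521). Milr1 fell 1.40-fold (adjusted p = 0.0191) and was not called without difamilast replicate 1 (0.147) or 2 (0.151) or stimulated replicate 1 (0.112), 2 (0.114) or 3 (0.0652). Of the windows of Pilra, 20.91% occur in other genes, mostly in Zcwpw1 on the other strand, and of those of Pilrb1, 33.41%, mostly in Pilrb2, so their values are uncertain.

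**Figure D5:**
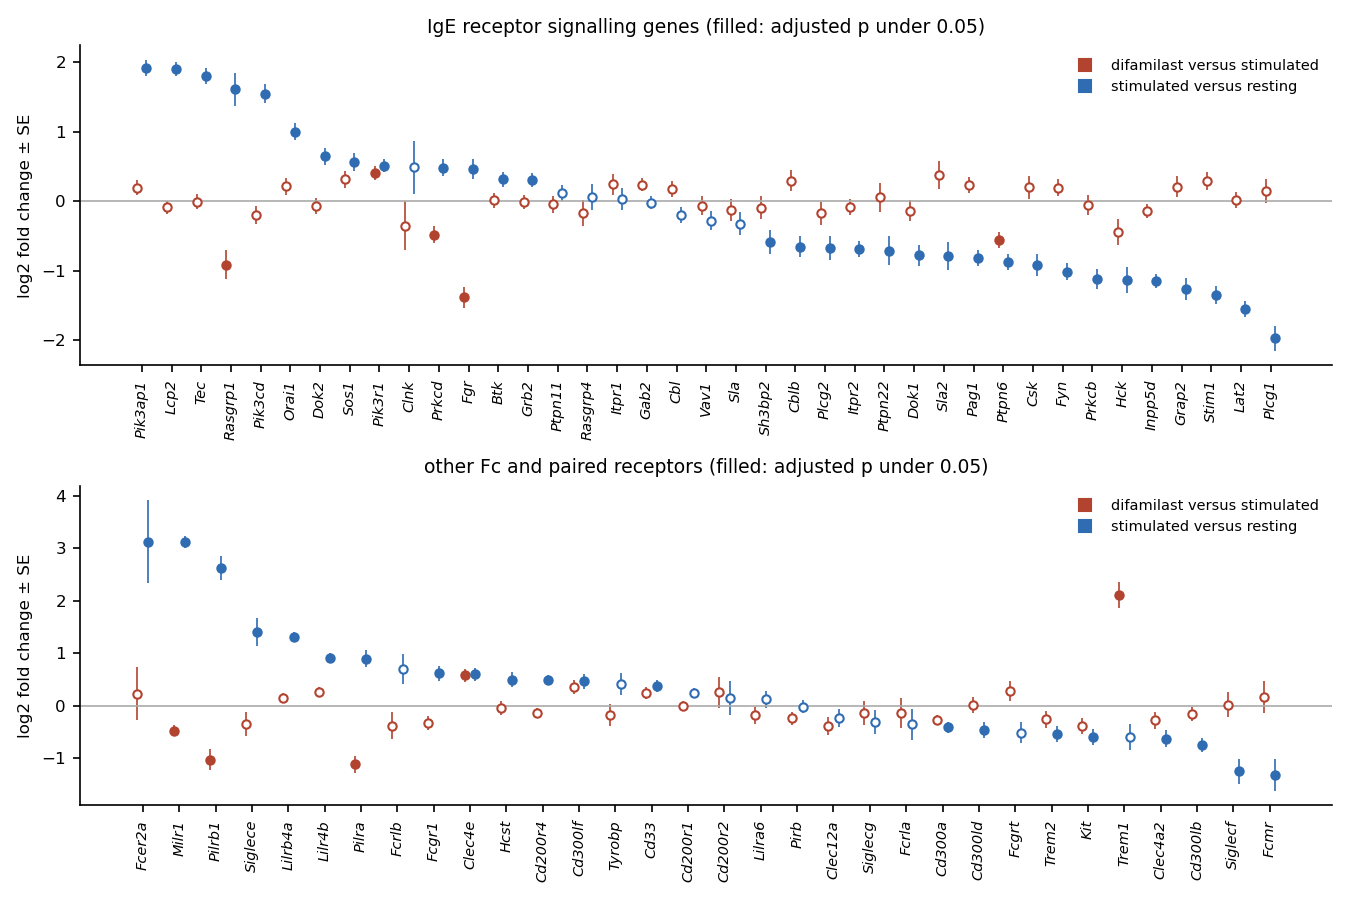
edgeR log2 fold changes (vertical axis) with their SE for genes of the signalling list (top) and of the list of other receptors (bottom), ordered by the value of stimulated against resting cells, with difamilast against stimulated cells beside it and filled points for an adjusted p under 0.05. Fgr, Trem1 and Pilra are among the points filled for difamilast, with values of -1.38, 2.12 and -1.12.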

How the data were processed

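Raw counts per gene symbol of 9 bulk RNA-seq libraries were deposited by the authors in a single table of whole numbers. Per the labels' protocols, messenger RNA bound to oligo-dT beads went through polyC tailing and amplification by TAS-Seq, then fragmentation. Longer and shorter transcripts may amplify unequally. Molecular identifiers are not mentioned, so counts may include PCR copies. Listed in the submitters' processing notes, without roles, are GRCm38, Bowtie2 2.4.5 and cutadapt 4.1. Not given in the sources used here are the counting tool, annotation and strand setting.

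edgeR 4.0.16 (R 4.3.3, statmod 1.5.0) was fitted to all 9 libraries with robust quasi-likelihood dispersion and TMM scaling after filterByExpr (at least 10 counts, total at least 15), with 6 residual degrees of freedom. Adjusted p-values are Benjamini-Hochberg over 21341 genes, called at 0.05. Alternatives were RLE scaling, DESeq2 1.42.0, limma-voom 3.58.1, no filter, a fit of 2 groups, a replicate block, removal of a lowess length trend (span 0.3), thinning, and each library left out. Positions, lengths and shared 50-base windows come from GENCODE vM21, which held 34294 of the symbols. This fit was tested on simulated data. Same-group libraries differed beyond sampling noise (chi-square per degree of freedom 4.28 to 43.3), so each counted once. The members and lists were chosen with earlier results of these data known; named list genes are up to 5 called in each direction with the smallest p for stimulation and up to 3 for difamilast. 1 gene of the signalling list is counted but not reported here.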

Additional observations from a re-analysis of the deposited data

How the results depend on the processing

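The counts of members called for stimulated against resting cells (8) and for difamilast against resting cells (6) stayed within 1.5 times under every alternative, at 6 to 8 and 5 to 6 with a library left out. For difamilast against stimulated cells the count was 1 and became 2 in a fit of the 2 groups alone and 2 without a filter on low counts; with a library left out it ran from 1 to 3, Ms4a2 being called each time. Over all genes that comparison called 735, and 1115 with DESeq2, 1673 in a fit of the 2 groups and 1351 without a filter, with 347 to 1693 when a library was left out. In it, the signalling list had 6 calls and the receptor list 5, which became 8 in a fit of the 2 groups; with a library left out they ran from 2 to 7 and from 2 to 9. Leaving out a library, the log2 difference in the Fcgr2b to Fcgr3 ratio ran from -0.37 to -0.28 between stimulated and resting, from -0.27 to -0.17 between difamilast and stimulated and from -0.60 to -0.49 between difamilast and resting cells, and that of Fcer1a to Fcer1g from 0.08 to 0.39, from 0.33 to 0.75 and from 0.53 to 0.96.

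No called member changed sign in any alternative; 18 values of uncalled members did. The log2 fold change of Fcgr3 in difamilast against stimulated cells was 0.002 with DESeq2, 0.001 with RLE scaling, 0.024 with the length trend removed, 0.008 without a filter and 0.053 without difamilast replicate 3 (lowest with a library left out, -0.066), and that of Fcer1a was 0.003 with the length trend removed. In difamilast against resting cells, Cd200r3 was at -0.025 with DESeq2, -0.022 with RLE scaling, between -0.107 and 0.083 with a library left out (below 0 in 5 of 9 fits), Fcer1g at -0.116 without difamilast replicate 3 and -0.02 without resting replicate 1 (highest 0.412), and Ms4a2 at 0.028 with the length trend removed and 0.038 without difamilast replicate 2 (lowest -0.08). Cd200r3 was at -0.029 in stimulated against resting cells without resting replicate 1 (highest 0.131). The causes were not tested. The labels do not say what a replicate number marks, so the libraries were not treated as paired. The deviations of same-numbered libraries correlated at -0.40 to 0.42, and those of differently numbered libraries at -0.53 to 0.59. Because these ranges overlap, the values cannot show or exclude pairing. With the replicate number as a block, 8 members were called with stimulation, 1 for difamilast against stimulated and 6 against resting cells. In libraries thinned to the shallowest total, Fcgr4 was called for stimulated against resting cells (adjusted p = 0.0126) and not for difamilast against resting cells (0.165).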
